A study of Striga hermonthica with 6 samples.

Results

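Of the 25056 small RNA loci counted in *Striga hermonthica*, 7766 (31.0%) were mid-length loci: about 0.43 kb at the shortest and under 0.8 kb at the longest, not marked as *MIRNA* by ShortStack, and on contigs of the SHERM assembly that carry 6 or more loci. The exact limits in nt are given with the processing. The loci were chosen by length, *MIRNA* mark and number of loci on the contig, none of which is a read count, although the locus boundaries themselves were drawn from the reads of these same libraries. *S. hermonthica* is a parasite of cereals that draws on its host through the haustorium, the organ that joins the parasite to the host root. Plants of the kibos genotype, an ecotype, were grown on rice KitaakeX for 45 days under 16-hour light at 30 °C, and small RNA was sequenced in 6 libraries: 2 of haustorium at stage 6, 2 of leaf at stage 6, and 2 of haustorium for which the labels give no stage (replicates 1 and 3). All groups share the ecotype, the host and the growth conditions, the stage is not defined in the sources used here, and nothing says whether replicates came from different plants. The p-values therefore rest on the variation among these libraries, possibly technical. No tissue marker can be checked in data of this kind, since the loci are named by cluster number only.

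In plants, small RNAs outside *MIRNA* loci are mostly small interfering RNAs, cut by Dicer-like enzymes from double-stranded RNA and loaded into Argonaute proteins. Those of the longer size class guide DNA methylation and silencing of transposons and repeats, while shorter ones act on transcripts after transcription. A small RNA library also holds pieces of other RNAs, such as transfer RNA and ribosomal RNA. ShortStack, the tool the authors used, joins nearby read alignments into a locus, and the count of a locus holds every read in it. Read sizes, strands and sequences of the reads were not used here, so the loci are assigned to none of these classes, and reads of rice origin were not separated. No genome sequence was used here, so the loci are given by position only.

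The counted reads came to between 3031863 and 8381235 per library. Counts were expressed as CPM, the reads of a locus in 1000000 counted reads of the library. In TMM normalization, a scaling that lines up the bulk of the loci, 2 libraries stood apart: stage 6 haustorium replicate 2 had a factor of 1.77 and leaf replicate 1 one of 1.75, against 0.608 to 0.981 in the other 4. These libraries also differed from the others in many of the values below, which are therefore given by library.

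The loci were mostly short within their range. Their lengths had a median of 461 nt and quartiles of 433 and 529 nt, and 3369 of the 7766 (43.4%) were shorter than 450 nt. Just inside the lower limit, the 463 loci of the shortest length had a median of 8.82 CPM in mean abundance (the mean of the 3 group means), and just outside it, 1538 loci shorter by 1 nt had a median of 7.75 CPM. At the upper limit, the 2 longest loci had 13.7 and 76.7 CPM, and the 4 loci of 800 nt had between 14.1 and 30.5 CPM. Longer loci tended to have more reads: across the 7766 loci, which share libraries and whose lengths were drawn from the same reads, the Spearman correlation of length with mean abundance was 0.557. The longest locus with a mean of at least 20 CPM was Cluster_7700 (contig CACSLK010016925.1, 2692739 to 2693537), which overlaps the gene SHERM_01165 and had between 18.9 CPM in haustorium replicate 3 and 165.6 CPM in stage 6 haustorium replicate 2.

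The loci were spread over 118 contigs, with at most 427 on a single contig. Of the 7753 on contigs with an annotated gene, 831 (10.7%) overlap a gene of the SHERM annotation, against 9.64% of the next shorter loci (those up to 2 nt under the lower limit), 19.1% of the loci of 800 nt or more and 12.1% of all loci. Those outside genes were a median of 2543 nt away from the closest gene. Overlap and distance were taken from the deposited ends of each locus, and the positions of reads inside a locus were not used. The gap to the nearest other small RNA locus had a median of 4620 nt, against 5170 nt for the next shorter loci and 1760 nt for those of 800 nt or more.

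These loci held the largest share of the counted reads among the classes of loci formed by length, contig and *MIRNA* mark in each library except leaf replicate 1, where the loci of 800 nt or more held slightly more. Haustorium replicates 1 and 3 had 49.8% and 51.9% of their counted reads there. Stage 6 haustorium had 51.3% in replicate 1 and 37.8% in replicate 2, and leaf had 35.0% in replicate 1 and 57.6% in replicate 2. The widest exact binomial 95% interval, that of stage 6 haustorium replicate 1, ran from 51.229% to 51.342%. Such intervals cover the error of counting alone, as PCR copies cannot be told from separate molecules. The lowest and the highest library were therefore the replicates of leaf, and both haustorium libraries without a stage lay between them. By group, leaf had 46.3% ± 16.0 (SD, n = 2), stage 6 haustorium 44.6% ± 9.52 (SD, n = 2) and haustorium without a stage 50.8% ± 1.48 (SD, n = 2). The group means differed by less than the SD of the leaf libraries, and no test was run on this sum over the loci. Loci of 800 nt or more held 24.4% to 36.6% of the counted reads, and the next shorter loci held 0.972% to 3.66%.

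**Figure D1:**
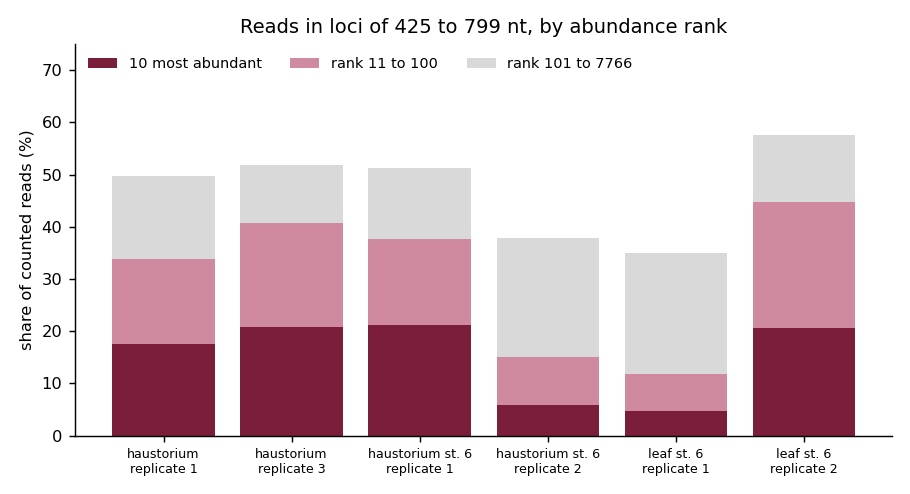
Share of the counted reads (y axis, percent) held by the 7766 mid-length loci in each of the 6 libraries (x axis), split into the 10 most abundant loci, those of rank 11 to 100 and the remaining 7666, ranked by mean CPM over the group means. The full bars range from 35.0% to 57.6%, and stage 6 haustorium replicate 2 and leaf replicate 1 have the smallest dark and pink parts and the largest grey parts.

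A small number of loci accounted for most of these reads in 4 of the libraries. The 100 most abundant loci, 1.29% of the 7766, held 67.9% and 78.7% of the reads of the class in haustorium replicates 1 and 3, 73.4% in stage 6 haustorium replicate 1 and 77.8% in leaf replicate 2. In stage 6 haustorium replicate 2 and leaf replicate 1 they held 39.8% and 33.9%. The 10 most abundant loci held 35.4%, 40.01%, 41.2% and 35.8% in the first 4 of these libraries, and 15.7% and 13.7% in the other 2. With loci ranked in each library on its own, 50% of the reads were reached with 23 and 17 loci in haustorium replicates 1 and 3, with 16 in stage 6 haustorium replicate 1 and with 21 in leaf replicate 2. The same share took 176 loci in stage 6 haustorium replicate 2 and 342 in leaf replicate 1. The order of the libraries therefore did not follow tissue or stage: each stage 6 group had a concentrated and a dispersed library.

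**Figure D2:**
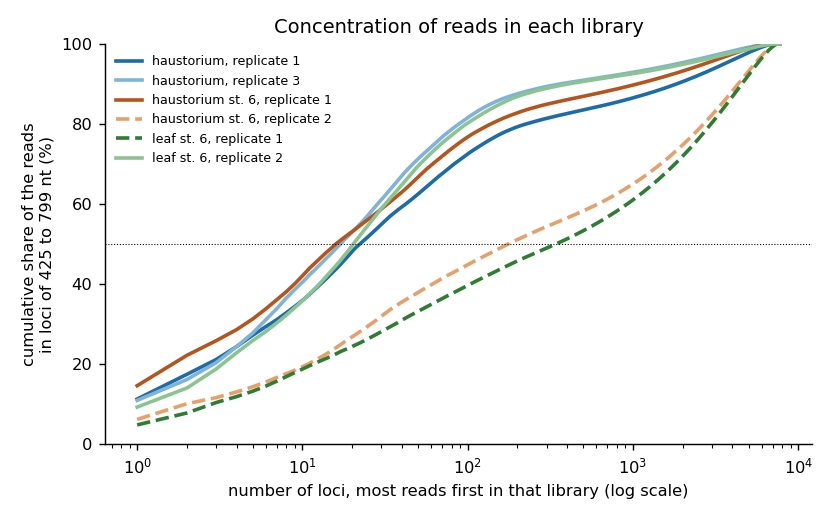
Cumulative share of the reads in the mid-length loci (y axis, percent) against the number of loci, taken from the most abundant downwards in each library (x axis, log scale). The dashed lines are stage 6 haustorium replicate 2 and leaf replicate 1, which cross 50% (dotted) at 176 and 342 loci, while the 4 solid lines cross it at 16 to 23 loci.

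Outside the 100 most abundant loci the libraries had the opposite order. The other 7666 loci held 16.0% and 11.1% of all counted reads in haustorium replicates 1 and 3, 13.6% in stage 6 haustorium replicate 1 and 12.8% in leaf replicate 2, against 22.8% in stage 6 haustorium replicate 2 and 23.2% in leaf replicate 1. The median locus of the class had 10.7 and 5.74 CPM in haustorium replicates 1 and 3, 8.25 and 21.3 CPM in stage 6 haustorium replicates 1 and 2, and 21.2 and 6.66 CPM in leaf replicates 1 and 2. CPM is a share of a fixed total, so that a larger share in abundant loci leaves less for the rest. The part of this in the order of the libraries was not tested.

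The most abundant locus was Cluster_18812 (contig CACSLK010028053.1, 3400637 to 3401111, 475 nt), 141 nt from the gene SHERM_02446. It had 56066 and 56683 CPM in haustorium replicates 1 and 3, 74853 and 23342 CPM in stage 6 haustorium replicates 1 and 2, and 16799 and 53280 CPM in leaf replicates 1 and 2. Pooled over the 6 libraries it gave 9.41% of the reads of the class. The leaf libraries were among both the low and the high values, and the ranges of leaf and haustorium overlapped.

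Cluster_13536 lies on contig CACSLK010027752.1 from 755126 to 755601 (476 nt) and overlaps the gene SHERM_23235. It had 30752 and 17484 CPM in haustorium replicates 1 and 3, 38970 and 2156 CPM in stage 6 haustorium replicates 1 and 2, and 3494 and 27272 CPM in leaf replicates 1 and 2. The highest and the lowest value, 18.1-fold apart, came from the replicates of stage 6 haustorium. Cluster_16830 (contig CACSLK010027833.1, 9888195 to 9888666, 472 nt), 157 nt from SHERM_27343, had 16195 and 27013 CPM in haustorium without a stage, 18657 and 2826 CPM in stage 6 haustorium, and 1983 and 17346 CPM in leaf, in the same order of replicates. Cluster_11148 (contig CACSLK010024540.1, 14175534 to 14176008, 475 nt) had the widest range of the 10, 27.7-fold, from 623 CPM in stage 6 haustorium replicate 2 to 17253 CPM in haustorium replicate 3. Its leaf libraries had 2454 and 13037 CPM.

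Cluster_4659 (contig CACSLK010011356.1, 2686028 to 2686537, 510 nt) was the only one of the 10 in which stage 6 haustorium replicate 2 was not among the lowest 2 libraries. It had 14080 and 21756 CPM in haustorium without a stage, 12945 and 14848 CPM in stage 6 haustorium, and 4358 and 27409 CPM in leaf. Another small RNA locus lies 57 nt from it. Cluster_7860 (contig CACSLK010017224.1, 253444 to 253916, 473 nt) had 18303 and 20992 CPM in haustorium without a stage, 11926 and 3597 CPM in stage 6 haustorium, and 9107 and 11370 CPM in leaf. It was the locus of the 10 with the most similar leaf libraries.

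Cluster_1105 (contig CACSLK010001140.1, 4424660 to 4425134, 475 nt), which overlaps SHERM_10336, had its highest value in leaf replicate 2, at 23566 CPM, and its lowest in leaf replicate 1, at 2126 CPM. Its haustorium libraries had 10669, 11102, 10192 and 4402 CPM, the last in stage 6 haustorium replicate 2. Cluster_13263 (contig CACSLK010027751.1, 7012505 to 7012980, 476 nt) ranged from 2760 to 14458 CPM, and Cluster_23903 (contig CACSLK010034598.1, 7262378 to 7262849, 472 nt), which overlaps SHERM_07796, ranged from 1273 to 13785 CPM. The tenth locus, Cluster_13637, was of another length (contig CACSLK010027752.1, 2103673 to 2104462, 790 nt) and ranged from 1928 CPM in leaf replicate 1 to 12377 CPM in leaf replicate 2. In 9 of the 10 loci, stage 6 haustorium replicate 2 and leaf replicate 1 were the lowest 2 libraries, which was also so in 43 of the 90 loci of rank 11 to 100 and in 2.24% of all 7766. Loci of high rank were chosen from the same values, so this is a description of the order of the libraries.

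**Figure D3:**
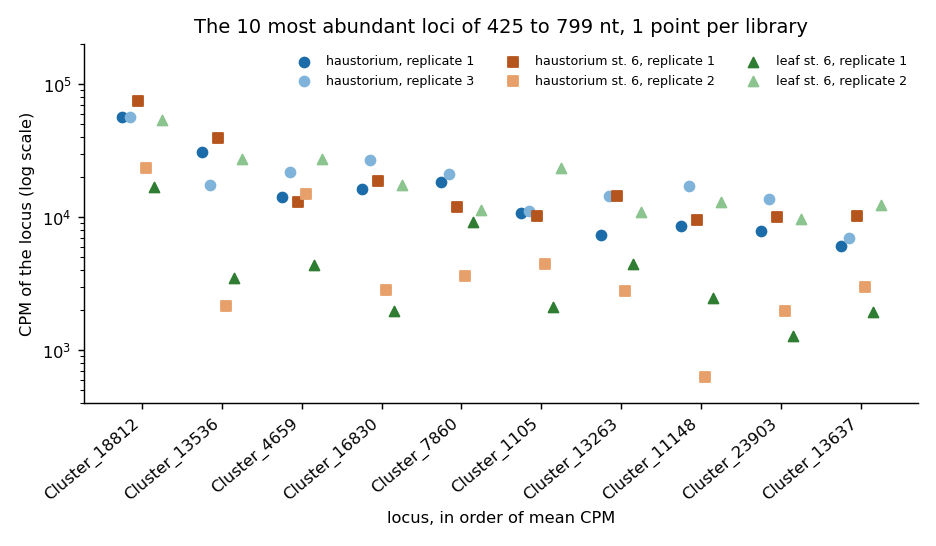
CPM (y axis, log scale) of the 10 most abundant mid-length loci (x axis, in order of mean CPM), with 1 point for each library, no mean or error bar, colour for the library and shape for the group. The pale squares (stage 6 haustorium replicate 2) and dark triangles (leaf replicate 1) are the lowest 2 points at every locus except Cluster_4659.

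Between leaf and haustorium, none of the 10 most abundant loci passed the test. The log2 fold change between leaf and haustorium (both haustorium groups weighted equally) after TMM was -0.44 (standard error 1.58) for Cluster_18812, -0.29 (standard error 1.86) for Cluster_13536, 0.37 (standard error 1.41) for Cluster_4659 and 0.86 (standard error 1.52) for Cluster_1105, and the adjusted p from edgeR's quasi-likelihood test was 0.99998 for each. The other 6 lay between -0.46 and 0.36. Every standard error was larger than its fold change. All 10 changed sign when a library was left out, as for Cluster_4659, which was at -2.80 without leaf replicate 2, and Cluster_18812, which was at 0.54 without stage 6 haustorium replicate 1.

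Of the 10 most abundant loci, 8 were between 471 and 476 nt long. These lengths form the unbroken run around 475 nt, the most-read length, in which each held at least 1% of the pooled reads. Some lengths outside the run also held 1% or more, most of all 510 nt with 3.55%. The run was noticed after the values were seen and is given as a description. The class held 292 loci of 471 to 476 nt (3.76% of the 7766), on 64 contigs. They gave 49.2% of its pooled reads and 55 of its 100 most abundant loci. Loci of 475 nt alone (41 loci) gave 16.5% of the pooled reads, those of 472 nt (79 loci) 10.9%, those of 473 nt (58 loci) 9.50% and those of 476 nt (28 loci) 7.50%. The number of loci also had a local peak there, with 79 at 472 nt against 35 at 471 nt and 32 at 477 nt. In contrast, the 3369 loci shorter than 450 nt gave 12.9% of the pooled reads.

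**Figure D4:**
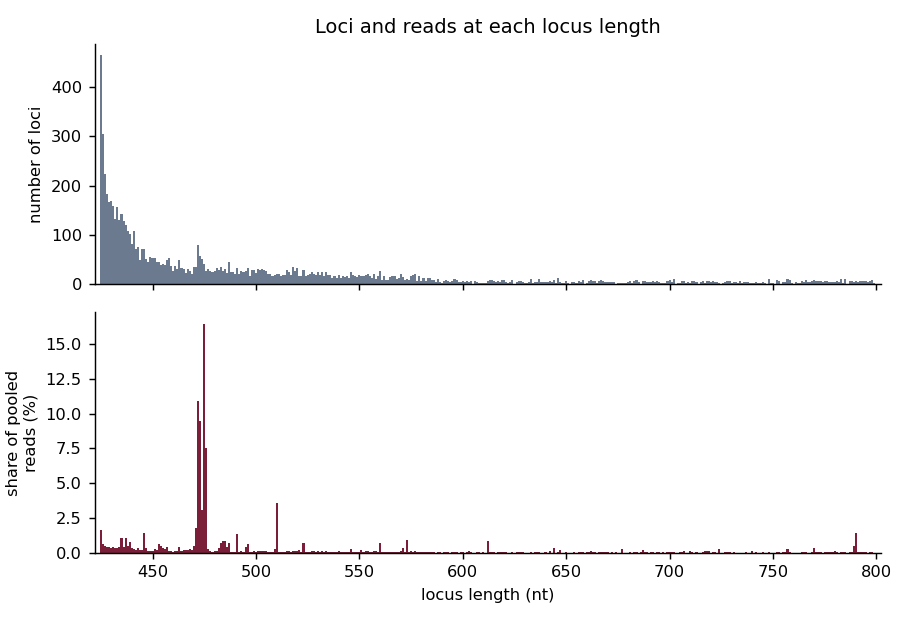
Number of loci (upper panel, y axis) and share of the pooled reads of the class (lower panel, y axis, percent) at each locus length in nt (x axis). The number of loci falls from 463 at the shortest length with a small peak at 472 nt, whereas the reads peak within 471 to 476 nt, with 16.5% at 475 nt alone.

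As a share of all counted reads, the loci of 471 to 476 nt had 27.2% in haustorium replicate 1, 30.8% in haustorium replicate 3, 30.7% and 10.5% in the libraries of stage 6 haustorium, and 8.62% and 33.7% in those of leaf. The 7474 loci of other lengths varied less between libraries, with 22.6%, 21.1%, 20.6%, 27.4%, 26.4% and 23.8% in the same order. Without the loci of 471 to 476 nt, the lowest library of the class was stage 6 haustorium replicate 1 and the highest was stage 6 haustorium replicate 2. Most loci of these lengths were not abundant. Only 105 of the 292 (36.0%) had a mean of at least 100 CPM, against 183 of the other 7474 (2.45%). The median locus of 471 to 476 nt had 33.7 CPM in stage 6 haustorium replicate 2 and 28.5 CPM in leaf replicate 1, above the 9.06 to 18.9 CPM of the other 4 libraries. Thus the low shares of these lengths in the former libraries lay in the abundant loci and not in the median one. Of the 292, 46 (15.8%) overlap an annotated gene, against 10.5% of the loci of other lengths.

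Across all 7766 loci, group means of CPM were lowest in haustorium without a stage, by a margin that depended on the scaling. The median locus had a group mean of 8.61 CPM in haustorium without a stage, 15.4 CPM in stage 6 haustorium and 14.5 CPM in leaf, and the highest group mean was that of haustorium without a stage at 816 loci (10.5%), that of stage 6 haustorium at 3897 (50.2%) and that of leaf at 3053 (39.3%). Over all 25056 loci the corresponding shares were 17.0%, 45.3% and 37.7%. After TMM the medians were 10.7, 11.6 and 11.6 CPM, and the highest group mean was in the 3 groups at 30.8%, 34.2% and 35.0% of the loci, against 35.1%, 31.2% and 33.7% of all 25056. The libraries with high TMM factors belong to the stage 6 groups, 1 to each, so a difference in level between the groups cannot be told apart from the difference of these libraries.

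Leaf was compared with haustorium to ask which loci differ between the organ at the host root and the shoot. In edgeR's quasi-likelihood test on all loci, 0 of the 7659 loci of the class that passed its filter on low counts were called at an adjusted p of 0.05 in leaf against haustorium, against 0% of the 24421 loci tested in all (107 loci of the class did not pass the filter). At an unadjusted p under 0.05 there were 219 loci of the class (2.86%) against 3.26% of all loci. DESeq2 called 80 of the 7766 (1.03%) against 0.802% of all loci. The contrast averages the haustorium groups on the log scale, so a call as higher in leaf can come with a lower mean CPM there. DESeq2 called Cluster_13504 and Cluster_1616 at log2 fold changes of 11.7 and 10.9 (adjusted p = 0.0122 and 0.00435). Their mean CPM was 123 and 60.8 in leaf, against 673 and 65.3 over the haustorium libraries. Each had no reads in 1 haustorium group. In edgeR's fit the log2 fold change had a median of 0.12 over the class, with 4390 values above 0 and 3269 below, and 0.12 over all loci tested. The median standard error was 0.78, and the median fold change of the class was -0.041 without leaf replicate 1.

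Between leaf and haustorium of the same stage, edgeR again called 0 of 7659 (0% of all loci), with 138 (1.80%) at an unadjusted p under 0.05 against 2% of all loci, and DESeq2 called 45 (0.579%) against 0.463% of all loci. The median log2 fold change was 0.026 over the class and 0.049 over all loci, and 0.24 over the class without stage 6 haustorium replicate 2. Between stage 6 haustorium and haustorium without a stage, edgeR called 0 of 7659 (0% of all loci), with 312 (4.07%) at an unadjusted p under 0.05 against 4.39% of all loci, and DESeq2 called 118 of 7709 (1.53%) against 1.63% of all loci. The median was 0.10 over the class and 0.018 over all loci, and -0.13 over the class without stage 6 haustorium replicate 2 and 0.30 without haustorium replicate 1. Without both libraries that stood apart the median was -0.11, and 0 loci were called. The shares called among the class were near those of all loci in each contrast. These contrasts share libraries and are not independent of each other.

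In CPM, both leaf libraries were above all 4 haustorium libraries at 111 of the 7766 loci (1.43%), against 1.63% of all loci, and below all 4 at 114 (1.47%), against 2% of all loci. After TMM the counts were 404 (5.2%, against 4.77% of all loci) and 297 (3.82%, against 3.78%). Against stage 6 haustorium alone, both leaf libraries were above both others at 284 loci (3.66%, against 4.76% of all loci) and below both at 577 (7.43%, against 8.55%). After TMM these were 960 (12.4%, against 12.3%) and 969 (12.5%, against 11.6%), so the imbalance was not seen on that scale. Both libraries of stage 6 haustorium were above both of haustorium without a stage at 2201 loci (28.3%, against 25.7% of all loci) and below both at 351 (4.52%, against 8.98%). After TMM the latter counts were 1511 (19.5%, against 17.9% of all loci) and 1036 (13.3%, against 16.9%).

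The most abundant loci with both leaf libraries above every haustorium library in CPM were Cluster_15163, Cluster_17394, Cluster_13437, Cluster_13271 and Cluster_21231. Cluster_15163 (contig CACSLK010027789.1, 528008 to 528480, 473 nt) had 5219 and 5186 CPM in leaf, against 4683 and 4364 CPM in haustorium without a stage and 3505 and 2925 CPM in stage 6 haustorium. It ranked fifteenth in the class, and its libraries lay within 1.78-fold of each other. Its log2 fold change after TMM was 0.39 (standard error 0.97), and on that scale the leaf libraries no longer stood above the others.

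Cluster_13437 (contig CACSLK010027751.1, 10757984 to 10758670, 687 nt) had 837 and 359 CPM in leaf and 249.7, 111, 62.0 and 279 CPM in the haustorium libraries, which gave 1.70 on the log2 scale after TMM (SE 0.66, edgeR adjusted p = 0.99998). The leaf libraries stayed above the others after TMM. Cluster_13271 (contig CACSLK010027751.1, 7115206 to 7115677, 472 nt) had 639 and 14030 reads in leaf and 0, 1, 0 and 18 reads in the haustorium libraries, and also stayed above after TMM. The leaf libraries of this locus themselves differed by more than 10-fold in CPM (87.0 and 1684). Cluster_21231 had 294 and 475 CPM in leaf against 153 to 266 CPM in haustorium, and Cluster_17394 had 935.5 and 1584 CPM in leaf against 703 CPM in haustorium replicate 1 and 0 to 2 reads in the other 3 haustorium libraries. These last loci overlapped after TMM.

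Among loci with both leaf libraries below every haustorium library, the most abundant were Cluster_14222, Cluster_13878, Cluster_13042, Cluster_5732 and Cluster_20675. Cluster_5732 (contig CACSLK010012531.1, 4325345 to 4326046, 702 nt), which overlaps the gene SHERM_15451, had 13.5 and 3.24 CPM in leaf, 256.2 and 96.0 CPM in haustorium without a stage, and 111 and 846 CPM at stage 6. The groups did not overlap, before or after TMM. After TMM it was at -5.31 on the log2 scale (SE 1.06; edgeR unadjusted p = 0.00315, adjusted p = 0.99998), and DESeq2 called it (adjusted p = 2.88e-07). Of the 10 loci chosen for leaf above or below, DESeq2 also called Cluster_13271 (adjusted p = 9.80e-07), Cluster_17394 (0.0181) and Cluster_13042 (0.0236). It did not call the other 6. The 10 loci were chosen on the same counts, so these calls are not independent of the choice. Leaving out each library in turn did not turn the direction of Cluster_5732. With the groups apart after TMM, this was to be foreseen and is no further support. Cluster_20675 (contig CACSLK010030614.1, 578028 to 578464, 437 nt) had 43.5 and 98.2 CPM in leaf and between 137 and 485 CPM in haustorium, with -1.60 on the log2 scale after TMM (SE 0.97), and also stayed apart after TMM.

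Cluster_13878 (contig CACSLK010027752.1, 5887753 to 5888191, 439 nt) had 215 and 354 CPM in leaf and between 404.5 and 931 CPM in haustorium, and its ranges overlapped after TMM. Cluster_14222 had 0 reads in leaf replicate 1, 527 CPM in leaf replicate 2 and between 660 and 3566 CPM in haustorium. Cluster_13042 had 0 and 4 reads in leaf, but only 2 reads in stage 6 haustorium replicate 1 and 9 in haustorium replicate 3, so the order rested on counts near the limit of 3 reads that a count of 0 allows. Its other haustorium libraries had 13230 and 1274 reads.

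The loci with the lowest DESeq2 adjusted p had no reads in whole groups or in all libraries except 1. In leaf against haustorium they were Cluster_6056, Cluster_994 and Cluster_240. Cluster_6056 (contig CACSLK010013932.1, 590059 to 590529, 471 nt) had 973 and 352 reads in leaf and 4, 1, 0 and 0 reads in haustorium (DESeq2 adjusted p = 1.92e-10). It also had the lowest edgeR p of the class in this contrast (unadjusted p = 1.22e-04, adjusted p = 0.99998). Cluster_994 had 5290 reads in leaf replicate 2 and 0 to 4 reads in each of the other 5 libraries, and Cluster_240 had 2025 reads in leaf replicate 2 and 0 in the others, so in these loci the call rested on a single library. In leaf against stage 6 haustorium, Cluster_994 and Cluster_4292 shared the lowest DESeq2 adjusted p, 7.40e-13. Cluster_4292 had 550 and 1099 reads in leaf and 0 in both stage 6 haustorium libraries, with 1067 and 0 in haustorium without a stage. Cluster_1616 was next in that contrast and had the lowest adjusted p in stage 6 haustorium against haustorium without a stage (DESeq2, 6.74e-14). It had 553 and 1325 reads in haustorium without a stage, 0 in both libraries at stage 6, and 893 and 0 in leaf. Cluster_13504 had 0 reads in both libraries of haustorium without a stage, 7737 and 964 reads at stage 6, and 0 and 2048 in leaf. Cluster_15825 had 316 and 841 reads in haustorium without a stage, 0 in the libraries of stage 6 haustorium, and 0 and 548 in leaf. Between the haustorium groups Cluster_4292 and Cluster_15825 tied at a DESeq2 adjusted p of 4.35e-12. Cluster_994 and Cluster_240 did not pass edgeR's filter on low counts and were not tested there, and the other 5 loci were tested and not called by edgeR.

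The agreement of replicates depended on the scaling. In CPM, the libraries of haustorium without a stage were within 2-fold of each other at 3859 of the 7766 loci (49.7%), those of stage 6 haustorium at 2828 (36.4%) and those of leaf at 2077 (26.7%), counted on the log2(CPM + 1) scale. Over all loci the shares were 49.7%, 37.2% and 30.6%. After TMM, replicates were within 2-fold at 57.2%, 57.2% and 58.7% of the loci of the class, and at 53.9%, 51.9% and 53.5% of all loci. In CPM only 325 loci (4.18%) were within 2-fold in all 3 groups, against 4.74% of all loci. After TMM this was so at 1978 loci (25.5%), against 20.03% of all loci. The median absolute difference of log2(CPM + 1) between replicates was 1.01 between those of haustorium without a stage, 1.37 for stage 6 haustorium and 1.59 for leaf, while pairs of libraries from different groups had medians from 0.737 to 1.78. The differences within groups lay inside the range of those between groups.

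The SD of log2(CPM + 1) over the 6 libraries had a median of 1.10 over the class, against 1.19 over the next shorter loci, 0.862 over those of 800 nt or more and 1.19 over all loci. It did not simply follow abundance: the 10 most abundant loci had a median of 1.12, those of rank 11 to 100 had 1.64, those of rank 101 to 1000 had 1.16 and the rest 1.09. By length, the median SD was 1.40 for the loci of 471 to 476 nt, 1.17 for those shorter than 450 nt and 0.951 for those of 700 nt or more. Within groups and after TMM, edgeR's median coefficient of variation was 0.734 over the class and 0.849 over all loci tested. These values depend on abundance and on the number of loci with no read, and the differences were not tested.

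**Figure D5:**
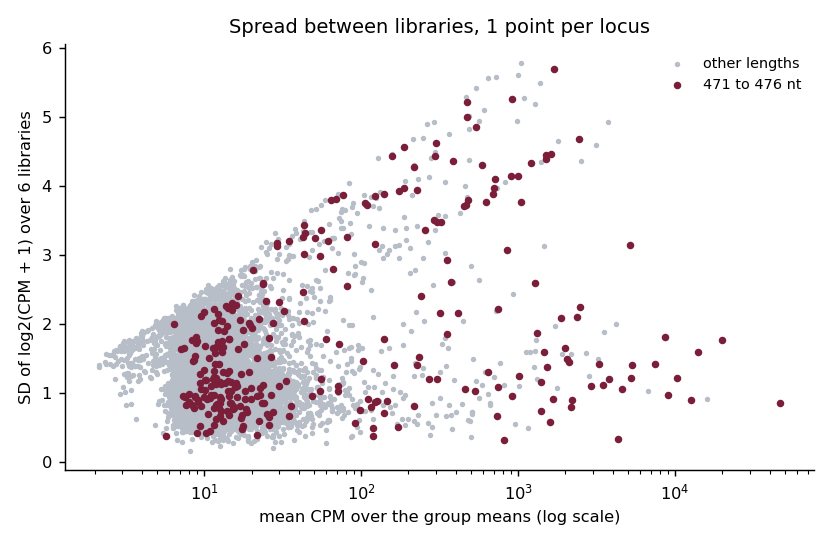
SD of log2(CPM + 1) over the 6 libraries (y axis) against mean CPM over the group means (x axis, log scale), with 1 point for each of the 7766 loci and the 292 loci of 471 to 476 nt in dark red. The dark red points reach the right end of the plot, and abundant loci lie both near an SD of 1 and in an upper band of loci that had no reads in some library.

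The most even loci with a mean of at least 20 CPM were Cluster_12463, Cluster_25015, Cluster_3030, Cluster_9850 and Cluster_12478, with SDs from 0.202 to 0.307. Cluster_12463 (contig CACSLK010026072.1, 7839976 to 7840540, 565 nt), which lies 56 nt from another small RNA locus, had 23.2 and 28.9 CPM in haustorium without a stage, 22.8 and 32.9 CPM in stage 6 haustorium, and 28.2 and 29.5 CPM in leaf. Cluster_25015 (contig CACSLK010035018.1, 3621469 to 3622187, 719 nt), which overlaps SHERM_09175, ranged from 42.7 to 69.2 CPM. In all 5 loci the highest and the lowest library were less than 2-fold apart. None of them was between 471 and 476 nt long.

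The least even loci had SDs from 5.56 to 5.77. Cluster_3194 (contig CACSLK010008332.1, 1641503 to 1641955, 453 nt) had 0 and 6528 reads in haustorium without a stage, 0 and 3407 reads at stage 6, and 0 and 40109 in leaf, so every group had a library without a read. Cluster_1144 (contig CACSLK010001140.1, 4917747 to 4918218, 472 nt), which overlaps SHERM_10379, had 30644 and 0 reads, 2878 and 0 reads, and 3954 and 41301 reads in the same groups. Cluster_18777 (contig CACSLK010028053.1, 2837533 to 2837978, 446 nt) had 21752 reads in stage 6 haustorium replicate 2 and 20816 in leaf replicate 1, the libraries that stood apart, and 0 to 11 reads in each of the other 4. Cluster_18385 and Cluster_8917 had at most 1 read in 3 and 4 libraries, and 22170 reads of Cluster_8917 were in leaf replicate 2. The most abundant locus of the shortest length, Cluster_9643 (contig CACSLK010020742.1, 8834598 to 8835022), had 8783 and 763 CPM in haustorium without a stage, 3197 CPM in stage 6 haustorium replicate 2, 1357 and 1018 CPM in leaf, and 2 reads in stage 6 haustorium replicate 1.

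Reads were found in every library at 6404 of the 7766 loci (82.5%), against 72.9% of the next shorter loci, 99.2% of those of 800 nt or more and 72.0% of all loci. Of the other 1362 loci, 880 had no read in 1 library, 303 in 2, 139 in 3, 34 in 4 and 6 in 5. Loci without a read numbered 297 in haustorium replicate 1, 517 in haustorium replicate 3, 613 and 185 in the libraries of stage 6 haustorium, and 134 and 323 in those of leaf. The highest number was in the library with the fewest counted reads, and the lowest numbers were in the libraries that stood apart. A count of 0 allows up to 3 reads, which is 0.989 CPM in stage 6 haustorium replicate 1 and 0.358 to 0.442 CPM in the others. In 1293 of the 1362 loci, another library had 100 reads or more.

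Among the loci that overlap an annotated gene, the most abundant were Cluster_13536, Cluster_1105 and Cluster_23903, described above, and Cluster_15864 and Cluster_8873. Cluster_15864 (contig CACSLK010027831.1, 1112638 to 1113197, 560 nt) overlaps SHERM_26089 and had 3246 and 2757 CPM in haustorium without a stage, 1863 and 658.5 CPM in stage 6 haustorium, and 371.5 and 7415 CPM in leaf. Cluster_8873 (contig CACSLK010020336.1, 1653105 to 1653580, 476 nt) overlaps SHERM_01499 and ranged from 812.5 CPM in leaf replicate 1 to 3488 CPM in haustorium replicate 3. The annotation used here gives these genes no name, and whether the reads came from the gene's strand was not examined.

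Libraries of a group did not stand out as more alike in these loci than libraries of different groups. Taken across the 7766 loci (loci are not replicates), Spearman's correlation of CPM was 0.343, 0.306 and 0.219 within haustorium without a stage, stage 6 haustorium and leaf, and between 0.184 and 0.496 in the 12 pairs of libraries from different groups. The highest value, 0.496, was between stage 6 haustorium replicate 2 and leaf replicate 2. Across the 100 most abundant loci the values were 0.602, 0.114 and 0.232 within the groups and between 0.12 and 0.656 between them.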

How the data were processed

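Small RNA of 6 libraries was counted per locus, and libraries were grouped by tissue and stage from the sample labels. Per the study's methods, the authors removed 3' adapters and ran ShortStack with *de novo MIRNA* discovery on the SHERM assembly, otherwise at default settings. They deposited raw counts of reads per locus, with position and *MIRNA* mark, which were used without change. The loci have lengths (end minus start plus 1) of 425 to 799 nt. The loci and the lists below were chosen with earlier results of these data known.

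All 25056 loci entered the edgeR fit (version 4.0.16, R 4.3.3) with 3 groups, TMM, filterByExpr, the quasi-likelihood test and Benjamini-Hochberg adjustment. The fit was also run on simulated counts, but how many changed loci it recovered is not reported here. A lack of calls therefore does not show that no locus differs. DESeq2 1.42.0, other scalings, filters, pseudocounts and left-out libraries were alternatives. Positions of 29520 genes came from an annotation of the SHERM assembly. Plots were drawn with matplotlib 3.10.9.

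Named loci are the 10 of highest mean CPM, the 5 most abundant with leaf libraries above, and 5 below, every haustorium library, the 5 most and 5 least even, the longest and the shortest (even, longest and shortest among loci with a mean of at least 20 CPM; ties in length by abundance), the 3 of lowest DESeq2 adjusted p per contrast (ties by name), the 5 most abundant overlapping a gene, and any locus called by edgeR (none was).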

Additional observations from a re-analysis of the deposited data

Results flagged for a closer look

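Among the 4 haustorium libraries, 12 values were examined for a library far from the others, and 2 had one. The share of counted reads in the mid-length loci was 37.8% in stage 6 haustorium replicate 2, against 49.8% to 51.9% in the other 3, and Cluster_1105 had 4402 CPM in the same library, against 10192 to 11102 CPM. Chance puts about 1 in 20 such groups past this limit if the 4 libraries are draws from a single normal population. These libraries come from 2 haustorium groups, so that rate may not hold, and the 12 values share their libraries.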

How the results depend on the processing

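In every edgeR alternative that kept 2 libraries in each group, 0 loci of the class and 0 of all loci were called. DESeq2 called 80 (1.03%, against 0.802% of all loci) in leaf against haustorium. In leaf against stage 6 haustorium it called 45 (0.579%, against 0.463%). In stage 6 haustorium against haustorium it called 118 (1.53%, against 1.63%). The median log2 fold change moved with library totals only to 0.34 in leaf against haustorium and 0.83 in stage 6 haustorium against haustorium, and the latter to -0.11 without stage 6 haustorium replicate 2 and leaf replicate 1 together. With single libraries left out, the medians ran from -0.041 to 0.26, from -0.13 to 0.24 and from -0.13 to 0.30 in these contrasts. With the replicate block, leaf against stage 6 haustorium was at 0.031 and 0 loci were called. With the crossed replicate block it was 0.035, again with 0 called. The correlation of deviations of same-numbered stage 6 libraries was -0.155. It rests on 2 pairs and cannot tell whether the numbers pair the libraries. The crossed block, the TMM-scaled counts of loci that do not overlap and the range of 471 to 476 nt were chosen after the data were seen.

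The share of counted reads in haustorium without a stage was 45.2% without Cluster_18812, 45.7% from 450 nt, 55.2% on any contig and 58.9% without the 10 most abundant other loci. Without loci of 471 to 476 nt it was 21.8%, 24.0% and 25.1% in the 3 groups. The median SD was 1.17 and 0.789 with pseudocounts of 0.5 and 5, and 1.03 to 1.14 when libraries were left out. Loci with 5 or 10 reads in every library numbered 5487 and 4796.

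In leaf against haustorium, log2 fold changes of 12 named loci turned when a library was left out, with ranges of -2.70 to 0.54 (Cluster_18812), -3.75 to 1.86 (Cluster_13536), -2.80 to 1.28 (Cluster_4659), -4.08 to 1.00 (Cluster_16830), -1.50 to 0.63 (Cluster_7860), -3.09 to 1.81 (Cluster_1105), -2.25 to 0.97 (Cluster_13263), -2.90 to 2.07 (Cluster_11148), -3.79 to 0.91 (Cluster_23903), -2.83 to 1.39 (Cluster_13637), -0.49 to 0.93 (Cluster_15163) and -0.48 to 1.64 (Cluster_21231). Cluster_13437, Cluster_13878, Cluster_5732 and Cluster_20675 kept their direction. For Cluster_13437, Cluster_5732 and Cluster_20675 the leaf and haustorium libraries did not overlap after TMM, so this was to be foreseen. Leaving out libraries was not examined for the remaining named loci.

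Without both libraries that stood apart the values were 0.00045 (Cluster_18812), 0.17 (Cluster_13536), 0.036 (Cluster_16830), 0.035 (Cluster_13263) and 0.13 (Cluster_23903). For Cluster_11148, scaling by totals gave -0.061 and DESeq2 gave -0.025. The causes were not tested.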
